A study of Mus musculus with 6 samples.

Results

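The microfibril and elastic fibre genes described here are Fbn1, Fbn2, Mfap2, Mfap4, Mfap5, Eln, Fbln1, Fbln2, Fbln5 and Efemp2, 10 of the 23358 rows of the deposited gene table, taken by their symbols. They were followed in 6 RNA sequencing libraries of cultured C57BL/6 mouse bone marrow mesenchymal stem cells, an adherent stromal population that can give rise to bone, fat and cartilage cells. In 3 libraries the cells had received a non-targeting control siRNA, and in the other 3 an siRNA at 50 nM against Dia2, the formin encoded by Diaph3, which builds straight actin filaments. Cells of passage 6 to 12 were plated 24 h before an overnight lipid transfection in both groups, and RNA was taken 24 h after the medium change. Neither a sequence nor a dose is given for the control siRNA. The labels name neither the animals behind the cultures nor separate cultures for the 3 libraries of a group, so the tests see no more than library-to-library spread, possibly of technical origin.

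Microfibrils are thin extracellular filaments of fibrillin that bind latent TGF-beta complexes and lend tissues strength. In elastic tissues they also form the scaffold on which tropoelastin, the product of Eln, is laid down and crosslinked by lysyl oxidases. The microfibril-associated glycoproteins (Mfap2, Mfap5) decorate the filament, and the fibulins (Fbln1, Fbln2, Fbln5 and Efemp2, also called fibulin-4) bridge fibrillin, tropoelastin and the crosslinking enzymes. Bone marrow stromal cells are known to make fibrillin-rich matrix, while dense elastic fibres are a feature of arteries, lung and skin.

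Total gene counts were 70538768 to 110006338 per library, all counts were even, and the limit that a count of 0 allows, taken as 6 counts for 3 read pairs, equals 0.0534 to 0.087 CPM (counts scaled to a library total of 1e6) and covers counting error only. The targeted gene Diaph3, listed as Diap3, stood at 80.1 to 84.8 CPM with control siRNA and was 10.7-fold lower, at 7.39 to 8.37 CPM, with Dia2 siRNA. Of 11 mesenchymal markers, Thy1 was at 0 to 0.107 CPM over the 6 libraries. The summed level of the list was 1480 to 1730 CPM with control siRNA and 3370 to 3550 CPM with Dia2 siRNA. Cxcl12 was the largest part of that sum, at means of 815 and 2097 CPM. Of the 10 testable markers 9 rose, by as little as 1.25-fold for Pdgfra, and Lepr did not pass. At the same threshold, an adjusted p under 0.05, 29.3% of all tested genes were higher and 29.9% lower. Smooth muscle and pericyte markers summed to 2650 to 2970 and 3610 to 3830 CPM, mostly from Acta2 (means of 2326 and 2989 CPM). The 9 blood and macrophage markers, with Tyrobp at 0, summed to 10.6 to 11.7 and 4.94 to 7.12 CPM. Of these, 5 were under 1 CPM in all libraries. Cd53, Itgb2 and Cd68 fell, while Csf1r did not pass (means of 2.92 and 3.00 CPM, edgeR adjusted p = 0.877). Endothelial markers (1.75 to 2.2 CPM over all libraries) and epithelial markers (at most 0.458 CPM) were low in both groups. The mesenchymal, smooth muscle and pericyte, and blood and macrophage sums moved with the groups, while the endothelial sums overlapped between them. Epithelial sums did not overlap (0.142 to 0.203 CPM with control siRNA, 0.213 to 0.458 CPM with Dia2 siRNA). They lay near the floor, and no gene of that list had enough counts to test. The part of these sums in the changes below was not tested. In bulk RNA, fewer cells of a type and less RNA per cell cannot be told apart. The ribosomal precursor Rn45s took 11.7% of control replicate 3 and 10.9% of Dia2 replicate 1, against 6.0% to 7.41% elsewhere.

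Each annotated 3′ UTR of the 10 genes (GENCODE M21, GRCm38) was searched on the transcript strand for 5 words of 7 bases. Of these, AACTTAA and GGACTCT are the targets of bases 2 to 8 of the antisense and the sense strand of the Dia2 siRNA. The other 3 words are GCAGTAC along with TATGTGA as well as ATGTGAA. They had been picked earlier from the fold changes of these same libraries, so they are not independent of them. The sites found are printed 5′ to 3′ on the gene's strand, with the word in capitals, to show which genes of the group hold a word and where. The first lies at chr2:125301027-125301033 (minus strand) in Fbn1, the second at chr5:134702946-134702952 (minus) in Eln, the third at chr19:5481823-5481829 (plus) in Efemp2, and the last at chr6:91271966-91271972 (plus) in Fbln2. A further AACTTAA in Fbln2, at chr6:91271971-91271977, overlaps the last site and is not marked separately.
Fbn1: atgagtatggtGCAGTACatgtaaattaa
Eln: tgtccccacatGCAGTACtgtaaccccgt
Efemp2: aaggaactatgATGTGAAggacaataaag
Fbln2: tgtgactctgtAACTTAActtaatcatgc

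GCAGTAC occurred in 751 of 12083 tested genes with an annotated 3′ UTR (6.22%); of these 50.5% were higher and 20.9% lower with Dia2 siRNA, with a median log2 fold change of 0.23 against -0.01 for genes without it. Among the 10 genes it was present in Fbn1, which rose, and in Eln, which was close to 0 in all libraries. Mfap5 and Fbln5, which rose as well, held none of the 5 words. ATGTGAA was in 2244 genes (18.6%), of which 41.5% were lower and 25.8% higher, and Efemp2, the only gene of the group that fell, held it once. TATGTGA (13.7% of genes, 27.4% of them higher and 39.0% lower) and GGACTCT (13.4%, with 36.1% higher and 29.6% lower) were in none of the 10. AACTTAA, in 13.9% of genes, occurred in Fbln2 at overlapping positions, and Fbln2 did not pass the test. Of the genes with AACTTAA, 35.8% were higher and 28.0% lower. Over all 14151 tested genes, a wider set that includes genes without an annotated 3′ UTR, these shares were 29.3% and 29.9%. The length of the 3′ UTRs was not taken into account. A match is a description of letters only, and the part of these words in the changes was not tested.

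Promoter windows of 300 bases (250 before and 50 after a RefSeq start, GRCm38.p6) were found for 6 of the 10 genes: Fbn1, Mfap2, Fbln1, Fbln2, Fbln5 and Efemp2. They were searched on both strands for TATAAA (present in 13.6% of 32851 promoters), the GC box GGGCGG (35.7%), the TEAD motif GGAATG (14.7%), the AP-1 motif TGANTCA (7.81%) and the SRF CArG box (1.63%). The windows of Fbn1 (chr2:125506389-125506688, minus strand) and Fbln5 (chr12:101819070-101819369, minus strand) are shown because both genes rose; capitals mark GC boxes on either strand.
Fbn1: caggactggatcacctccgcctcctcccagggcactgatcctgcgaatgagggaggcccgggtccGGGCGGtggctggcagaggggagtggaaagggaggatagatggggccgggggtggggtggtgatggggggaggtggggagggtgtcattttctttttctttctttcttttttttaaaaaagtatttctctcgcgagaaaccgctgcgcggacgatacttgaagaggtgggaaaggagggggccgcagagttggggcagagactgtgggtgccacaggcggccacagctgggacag
Fbln5: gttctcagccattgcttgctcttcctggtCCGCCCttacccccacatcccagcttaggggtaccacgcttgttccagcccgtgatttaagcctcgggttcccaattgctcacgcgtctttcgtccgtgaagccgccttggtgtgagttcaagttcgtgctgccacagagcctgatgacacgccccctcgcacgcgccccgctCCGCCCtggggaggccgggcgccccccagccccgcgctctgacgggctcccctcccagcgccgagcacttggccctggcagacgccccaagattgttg

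The Fbn1 window held 1 GC box and the Fbln5 window 2, and neither held any of the other 4 motifs. A further Fbln5 window, at chr12:101818435-101818734, held none of the 5. The TEAD motif appeared in 1 window of Mfap2, a gene near 0 in these cells, and no window of the 6 genes held a TATA box, an AP-1 motif or a CArG box. GC boxes were also present in windows of Mfap2, Fbln1, Fbln2 and Efemp2, of which none was called higher and Mfap2 was not tested. G and C made up 60.3% of the Fbn1 window and 65.7% and 48.7% of the Fbln5 windows. The windows of the other 4 genes lay between 51.7% and 78.3%, and the median over all promoters was 52.7%.

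In the control siRNA libraries, the fibulin genes Fbln2 and Efemp2 had the highest levels of the group. On the deposited RPKM scale (counts scaled to the listed gene length and the library total, which lets genes be compared), Fbln2 was at 253, 242 and 196 in control replicates 1, 2 and 3, and Efemp2 at 153, 161 and 130. These 2 genes lay above 99.1% and 98.6% of all rows. Fbln1 followed at 19.8, 23.5 and 19.3 RPKM and Fbn1 at 15.2, 16.0 and 14.5 RPKM. Fbln5 was at 5.05, 5.54 and 4.96 RPKM and Mfap5 at 0.495, 0.757 and 0.768 RPKM. The ranges of these 6 neighbours did not overlap, so their order was the same in each control library.

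The remaining 4 genes were at or near the floor. Eln, the elastin gene (chr5:134702596-134747254), had 0 counts in all control libraries and 0, 2 and 2 in the Dia2 libraries. Mfap2 (chr4:141010424-141015984), which encodes MAGP-1, had 0, 0 and 2 counts and 0, 6 and 2 counts, and Mfap4 (chr11:61485444-61488704), which encodes a fibrinogen-related microfibril protein, had a single value of 2 counts in control replicate 2 and 0 elsewhere. Fbn2, encoding the fibrillin prominent in embryonic microfibrils (chromosome 18), had 6, 4 and 2 counts with control siRNA and 6, 10 and 14 with Dia2 siRNA. None of the 4 passed the filter on low counts, so no fold change is given for them. Elastin mRNA was thus not detectable above 6 counts in any library, at totals of 70538768 counts or more.

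**Figure D1:**
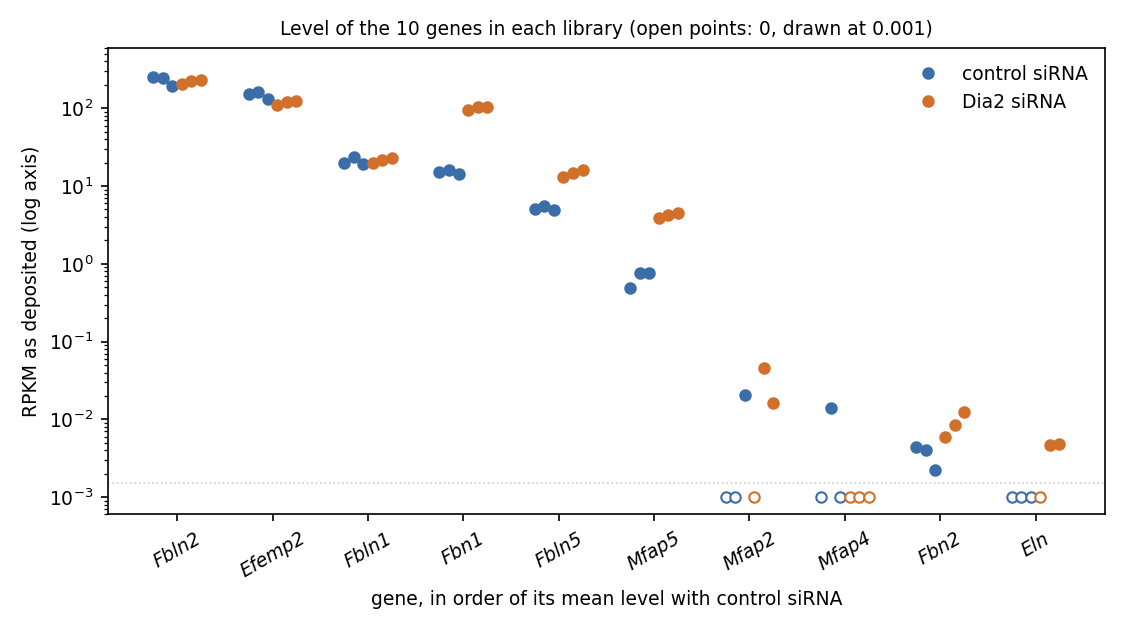
Deposited RPKM (log axis) of the 10 genes in each library, with genes ordered by their mean level in the control group; blue points are control libraries, orange points Dia2 libraries, and open points are values of 0. Fbln2 and Efemp2 lie above 100 RPKM in all libraries, Fbn1 moves from about 15 to over 95 RPKM, and the 4 genes on the right stay below 0.05 RPKM.

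With Dia2 siRNA, 3 of the 6 testable genes rose, 1 fell and 2 did not pass the test. Fbn1 rose 6.84-fold, Mfap5 6.56-fold and Fbln5 2.89-fold. Efemp2 fell 1.21-fold, and Fbln1 and Fbln2 did not pass. A gene was called at an adjusted p under 0.05 in edgeR's quasi-likelihood test over 14151 genes. At that threshold 59.2% of all tested genes were called, 29.3% higher and 29.9% lower, and the counts of 3 and 1 are to be read against those shares. At least 2-fold rises were rarer, at 5.82% of tested genes, and all 3 rising members were among them. The libraries of the groups did not overlap for 4 of the 6, against 64.6% of all tested genes. The median log2 fold change of the 6 was 0.80, against 0.01 for all tested genes, a median that leaves out the 4 genes below the filter.

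Fbn1 encodes fibrillin-1, the backbone of the microfibril, whose mutation causes Marfan syndrome in people (chr2:125300594-125506438). Scaled to library size by TMM factors, control replicates 1, 2 and 3 held 173, 180.4 and 177 CPM, and Dia2 replicates 1, 2 and 3 held 1197, 1229 and 1203 CPM. All 3 Dia2 libraries lay far above the control libraries, and within each group the libraries were close, with a coefficient of variation of 2.1% and 1.4%. The log2 fold change was 2.77 ± 0.05 (SE; 95% interval 2.67 to 2.87; edgeR adjusted p = 6.25e-12), which placed Fbn1 at rank 56 of 14151 by size of rise.

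Mfap5 encodes MAGP-2, a small glycoprotein that binds fibrillin (chr6:122513676-122529287). It was scarce: control libraries held 0.801, 1.22 and 1.34 CPM (90, 100 and 92 counts) and Dia2 libraries 6.94, 7.16 and 7.39 CPM (522, 688 and 692 counts). The groups did not overlap, and the control libraries were more scattered (coefficient of variation 25.1%) than the Dia2 libraries (3.19%), with control replicate 1 lowest. The log2 fold change was 2.71 ± 0.15 (SE; 95% interval 2.38 to 3.05; edgeR adjusted p = 3.9e-08), at rank 61. Per library, the RPKM ratio of Fbn1 to Mfap5 was 30.7, 21.1 and 18.9 with control siRNA and 24.6, 24.4 and 23.2 with Dia2 siRNA. The ratios of the groups overlapped (exact two-sided permutation p = 1.0; the smallest p that 3 against 3 libraries allow is 0.1).

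Fbln5 encodes fibulin-5, an integrin-binding fibulin needed for elastic fibre formation (chr12:101746565-101819055). Its level was 33.8, 36.9 and 35.7 CPM in the control libraries and 96.6, 100.8 and 109.5 CPM in the Dia2 libraries, without overlap. The log2 fold change was 1.53 ± 0.06 (SE; 95% interval 1.40 to 1.66; edgeR adjusted p = 1.58e-09). Its rise was smaller than that of Fbn1: the RPKM ratio of Fbn1 to Fbln5 went from 3.01, 2.88 and 2.92 in the control libraries to 7.29, 7.18 and 6.47 in the Dia2 libraries. These ratios did not overlap (exact permutation p = 0.1, the smallest possible).

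Efemp2 encodes fibulin-4, which brings lysyl oxidase to tropoelastin (chr19:5474690-5481854). Control libraries held 324, 338 and 295 CPM and Dia2 libraries 260, 262 and 269 CPM, each Dia2 value below each control value. The gap between the lowest control library, replicate 3, and the highest Dia2 library was small. The log2 fold change was -0.27 ± 0.05 (SE; edgeR adjusted p = 0.000846), a fall of 1.21-fold. In GENCODE the Efemp2 gene overlaps Mus81 on the other strand, but the gene models of the deposited table do not overlap there. Among the deposited models of the group, only that of Fbn1 overlaps another, Mir3110. GENCODE also places Gm9913 on the strand opposite Fbn1.

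Fbln1 and Fbln2, which encode the larger fibulins of basement membranes and fibrillin microfibrils, did not pass the test. Fbln1 (chr15:85206008-85286294) was at 76.3, 90.1 and 80.0 CPM with control siRNA and 82.8, 86.2 and 90.4 CPM with Dia2 siRNA, and the groups overlapped. Its log2 fold change was 0.08 ± 0.06 (SE; 95% interval -0.06 to 0.21; edgeR adjusted p = 0.322). Fbln2 (chr6:91212764-91272540) was at 1300, 1238 and 1079 CPM and at 1174, 1189 and 1198 CPM, with the low control value in replicate 3. Its log2 fold change was -0.02 ± 0.06 (SE; 95% interval -0.16 to 0.11; edgeR adjusted p = 0.774), so any change in these libraries was small. Without control replicate 3 it passed as lower (-0.10, adjusted p = 0.00648), and its sign turned, without a call, with upper-quartile scaling (0.01) and without control replicate 1 (0.03).

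**Figure D2:**
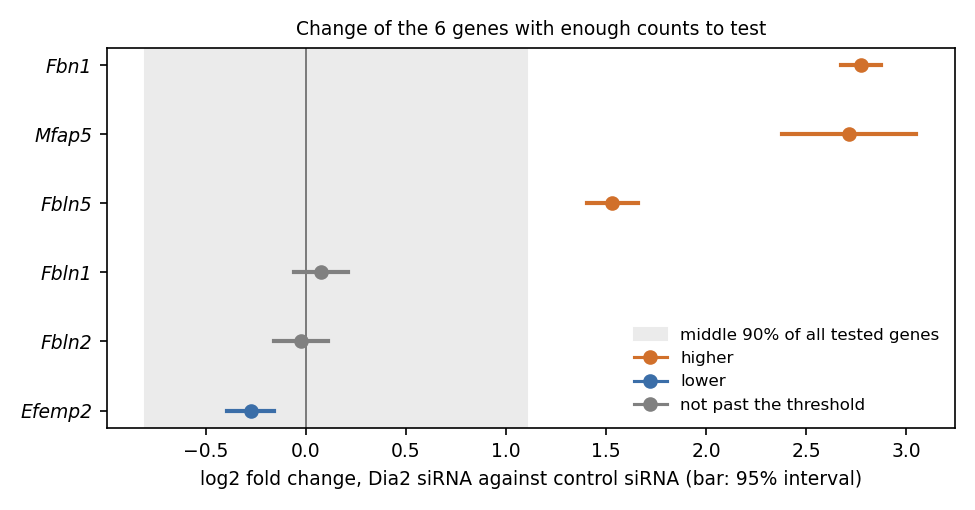
Log2 fold changes (Dia2 siRNA against control siRNA, n = 3 libraries each) of the 6 testable genes with 95% intervals; the grey band spans the middle 90% of all 14151 tested genes. Fbn1 at 2.77, Mfap5 at 2.71 and Fbln5 at 1.53 lie to the right of the band, and Fbln1, Fbln2 and Efemp2 lie within it.

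These changes altered the make-up of the group. Summed over the 10 genes, RPKM was 447, 449 and 365 in the control libraries and 451, 488 and 504 in the Dia2 libraries (exact permutation p = 0.1), with control replicate 3 lowest. Fbn1 made up 3.41%, 3.56% and 3.97% of that sum with control siRNA and 21.2%, 21.4% and 20.7% with Dia2 siRNA. The share of Fbln2 went from 54.7% ± 1.64 to 45.8% ± 0.155 and that of Efemp2 from 35.2% ± 0.798 to 24.7% ± 0.183 (SD, n = 3 each; exact permutation p = 0.1 for either). Shares of a common sum are not independent, so a larger Fbn1 share leaves less for the other genes. The level of Fbln2 itself did not pass the test (log2 fold change -0.02, edgeR adjusted p = 0.774). Fbn1 was below Fbln1 in each control library, at a ratio of 0.679 to 0.769, and above it in each Dia2 library, at 4.51 to 4.90. Fbn1 thus moved above Fbln1 in the order of levels, and the other expressed genes kept their order. Nearly all fibrillin mRNA was Fbn1: the Fbn2 share of the 2 fibrillins was at most 0.0292% in any library. Mfap5 likewise held 97.4% to 100% of the summed Mfap2 and Mfap5 level in both groups.

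**Figure D3:**
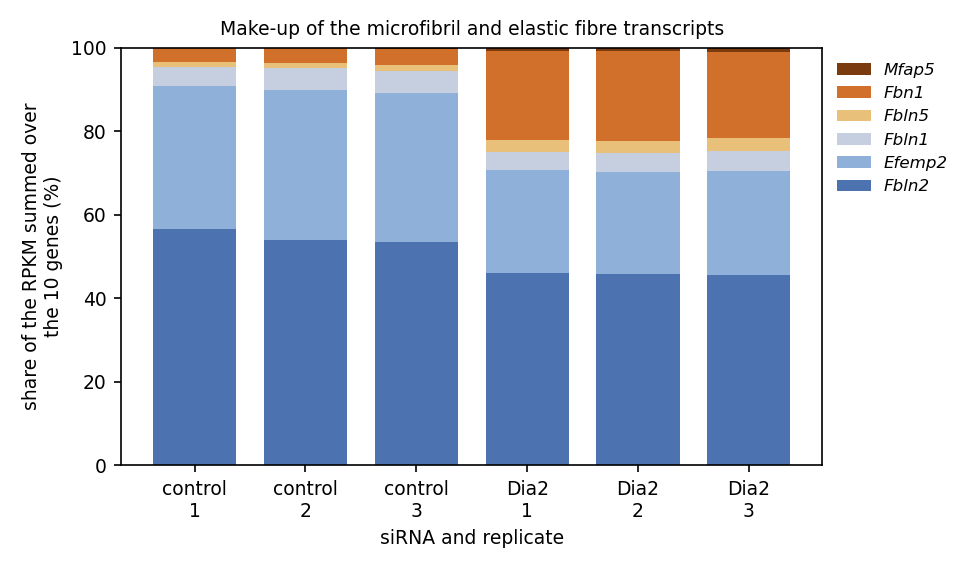
Share of each gene in the RPKM summed over the 10 genes (stacked to 100%), for the 3 control and the 3 Dia2 libraries; Fbn2, Mfap2, Mfap4 and Eln are too small to see. The Fbn1 segment widens from under 4% to over 20% in each Dia2 library, while Fbln2 and Efemp2 remain the 2 largest segments.

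The genes with profiles most like Fbn1 were sought among tested genes outside the group with a mean of at least 10 CPM, by the Euclidean distance of log2 CPM over the 6 libraries after centring each gene. The 5 nearest were the exocyst subunit gene Exoc4 (distance 0.194), Pik3ip1, which encodes a negative regulator of PI3 kinase (0.299), the collagen-binding integrin gene Itga11 (0.528), the matricellular gene Wisp2 (0.556) and the secreted Dkk3 (0.566). They rose 5.03- to 7.23-fold. GCAGTAC was present in the 3′ UTRs of Exoc4, Pik3ip1 and Dkk3 and GGACTCT was in that of Exoc4; Itga11 and Wisp2 held none of the 5 words. The 5 genes were chosen for a rise like that of Fbn1, and GCAGTAC came from an earlier look at the rising genes, so neither supports the other. Over 6 libraries in 2 groups such a distance mostly reflects the size of the difference between groups.

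Other genes of microfibril and elastic fibre assembly were more often higher than lower. Of 54 genes listed in 8 roles, 43 passed the filter; 24 rose, 4 fell and 15 missed the threshold, and the median log2 fold change was 0.22, against 29.3% higher and 29.9% lower over all tested genes. The list was written with earlier results of these data known. Hmcn2 was not analysed here.

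Of 7 genes for latent TGF-beta binding proteins and TGF-betas, 3 rose and 1 fell, with a median log2 fold change of 0.025. Tgfb3, a TGF-beta ligand, went from 82.1, 82.3 and 82.7 CPM to 222, 229 and 238 CPM, 2.79-fold, without overlap (edgeR adjusted p = 2.75e-10). Ltbp2, a latent TGF-beta binding protein that associates with microfibrils, was at 18.7 ± 1.27 CPM (SD, n = 3) with control siRNA and 48.8 ± 2.07 CPM (SD, n = 3) with Dia2 siRNA, a 2.61-fold rise. The more abundant Ltbp1 rose (log2 fold change 0.28) and Ltbp3 fell (-0.24), while Ltbp4, Tgfb1 and Tgfb2 did not pass (-0.12, 0.03 and -0.04).

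Of the lysyl oxidases, the copper enzymes that crosslink elastin and collagen, 4 of 5 rose. Loxl4 rose 2.42-fold from 111 ± 7.93 to 269 ± 0.816 CPM, Loxl3 1.82-fold, and Lox, the most abundant, 1.69-fold from 3462 ± 274 to 5861 ± 243 CPM (SD, n = 3 each). Loxl2 was 1.57-fold higher. Loxl1, which is tied to elastic fibre upkeep and binds fibulin-5, went the other way (-0.22 ± 0.07, SE; edgeR adjusted p = 0.0137), although its libraries overlapped between groups.

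Among 6 testable ADAMTS and ADAMTS-like genes, a family with members that bind fibrillin, 3 were higher and none lower: Adamtsl3 (2.95-fold, from 9.48 ± 0.573 to 28.0 ± 0.758 CPM; SD, n = 3 each), Adamtsl4 (1.68-fold) and Thsd4 (1.24-fold). The values of the other 3, Adamts6, Adamts10 and Adamtsl5, were 0.06, -0.12 and -0.11 on the log2 scale. Of 3 testable EMILINs and multimerins, 1 rose and 2 did not pass. Emilin1, which encodes a glycoprotein at the elastin and microfibril interface, rose 1.36-fold from 444 ± 41.5 to 606 ± 12.3 CPM. Fbln7 rose 1.57-fold, and Efemp1 (fibulin-3), at 371 and 381 CPM, did not pass (edgeR adjusted p = 0.571).

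Of 8 genes for the assembly scaffold and for the handling of elastic fibre proteins, 4 rose and 1 fell. Fn1, the fibronectin on which fibrillin is assembled, rose 1.16-fold from 8416 ± 585 to 9720 ± 277 CPM, and Fkbp10, an endoplasmic reticulum chaperone of collagen and tropoelastin, rose 1.52-fold. Dcn, the proteoglycan decorin, rose 1.88-fold but was scarce (1.85 ± 0.374 to 3.43 ± 0.157 CPM), and Vcan, a proteoglycan that binds fibrillin, fell 1.26-fold. Furin, the protease that trims profibrillin, did not pass (log2 fold change 0.03, edgeR adjusted p = 0.771).

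Integrins that bind the RGD sequence of fibrillin, fibronectin and fibulin-5 rose in 6 of 8 cases and none fell. Itgb5 rose 1.47-fold, Itgb1 1.28-fold, and Itga8, near 1 to 3 CPM, 2.42-fold. Itgb6 and Itgb8 did not pass. Of the proteases that cut elastin or fibrillin, 4 of 9 were testable: Mmp2 rose 1.94-fold from 110 ± 8.85 to 212 ± 2.87 CPM, Mmp14 rose 1.46-fold, Ctsk (cathepsin K) fell 1.38-fold and Ctsl did not pass. Mmp7 and Mmp12, the macrophage elastase, had 0 counts in all 6 libraries, which allows up to 0.087 CPM.

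**Figure D4:**
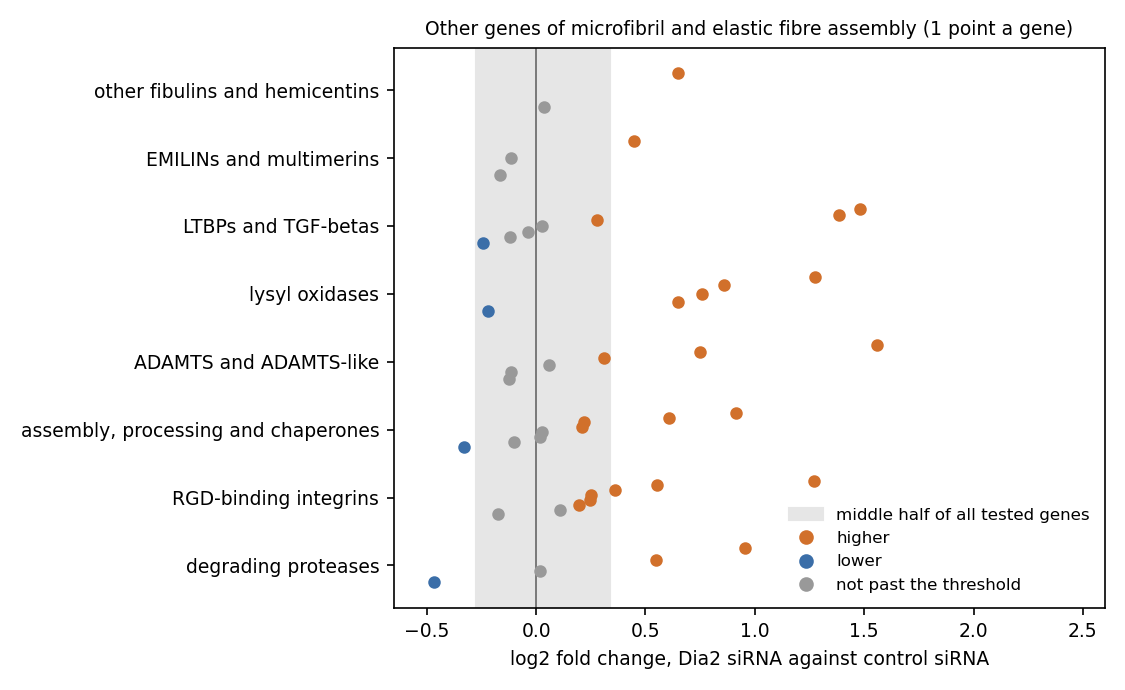
Log2 fold changes of the 43 testable genes in the 8 role lists, 1 point a gene, coloured by call; the grey band spans the central 50% of all tested genes. All 24 orange points (higher) lie to the right of 0, led by Adamtsl3, Tgfb3 and Ltbp2, and 4 blue points (Ltbp3, Loxl1, Vcan and Ctsk) lie to the left.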

How the data were processed

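RNA was measured in 3 control and 3 Dia2 siRNA libraries, grouped by sample title. The deposited table gives, per the file headers, a raw count, an RPKM value and a gene length for each gene; the authors' RPKM equalled the count divided by that length and by 1 total per library. The submitters' processing notes name bcl2fastq, TopHat2 2.0.6 and HTSeq, and the human builds hg19 and GRCh37, but the rows are mouse genes, and of 20970 rows whose symbol is in GENCODE M21, 99.4% overlapped that gene in GRCm38. For strand and multi-mapping, the settings were not stated in the labels or headers.

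The counts of all genes were filtered (filterByExpr, minimum count 10, minimum total 15), scaled by TMM and compared with edgeR 4.0.16 (R 4.3.3) by the quasi-likelihood test, with Benjamini-Hochberg adjustment over all genes tested; the code was tested on simulated data. SE is the absolute log2 fold change divided by the square root of F. RPKM served for levels between genes and for ratios, tested by exact permutation.

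The genes, lists and words were chosen with earlier results of these data known. The text names all 10 genes, Diaph3, up to 3 genes past the threshold with the largest change per list plus others needed to describe it, and the 5 genes nearest Fbn1. Alternatives covered scaling, filters, DESeq2 1.42.0, limma-voom 3.58.1, a replicate block, halved counts, and libraries or abundant RNAs left out. Same-numbered libraries did not deviate together, and no pair of replicates agreed within sampling noise.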

Additional observations from a re-analysis of the deposited data

How the results depend on the processing

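Each of 17 alternatives was run separately, and 1 of them left out 2 libraries together. Fbn1 (log2 fold change 2.75 to 2.81), Mfap5 (2.49 to 2.88), Fbln5 (1.47 to 1.57) and Efemp2 (-0.33 to -0.24) kept their direction and call. Fbln1 never passed (0.02 to 0.14; adjusted p 0.0507 to 0.837). The number of the 10 genes called higher was 3 throughout. The number called lower was 1, and 2 without control replicate 3, alone or together with Dia2 replicate 1, where Fbln2 passed (-0.10 and -0.09, adjusted p = 0.00648 and 0.019); leaving out 1 library gave a range of 1 to 2. Fbln2 turned to 0.013 with upper-quartile scaling and 0.028 without control replicate 1, without a call. Other scalings moved the median of all genes by less than 0.1.

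With the replicate number as a block the counts of called members were 3 higher and 1 lower, as without it, and over all genes 3877 higher and 3895 lower. Correlations of the deviations of same-numbered libraries were -0.208, -0.067 and -0.274, so the numbers show no pairing. With 1 added to each RPKM, the Dia2 minus control difference in the Fbn2 share of fibrillins went from -0.0147 to -4.86 percentage points and that in the Mfap5 share of Mfap2 and Mfap5 from 0.399 to 21.3, since the added value exceeds the level of Fbn2 and Mfap2. Without the filter, Fbn2 gave 1.29 ± 0.82 (SE; edgeR adjusted p = 0.22), and Eln, Mfap2 and Mfap4, with 6 counts or fewer, did not pass; depth limits any statement on these 4 genes.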
